A study of Caenorhabditis elegans with 2 samples.

Results

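Of the 346 small nucleolar RNA (snoRNA) genes on the nuclear chromosomes of Caenorhabditis elegans, 183 lie wholly inside a protein-coding gene on the same strand. These 183 hosted genes were taken from the Ensembl release 115 annotation of the WBcel235 genome, whose positions are those of the ce11 build, and no binding value entered the choice. They sat in 156 host genes. Their AMA-1 occupancy was read from chromatin immunoprecipitation followed by sequencing (ChIP-seq) with an antibody to AMA-1, which is the largest RNA polymerase II subunit. The 2 samples were biological replicates of a single group, whole early embryos of N2 worms, the laboratory wild type. They came from separate biosamples of pooled male and female animals, carried no listed allele or agent, and had an age given as unknown. Whole embryos mix cell types and stages, so a peak cannot be placed in a cell type.

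A snoRNA guides chemical modification of other RNAs, mostly ribosomal RNA. Box C/D snoRNAs direct 2′-O-methylation by fibrillarin and carry a C box near the 5′ end and a D box near the 3′ end. Box H/ACA snoRNAs direct pseudouridylation by dyskerin and end in a short ACA tail. In animals many snoRNAs are released from introns of the pre-messenger RNA of a host gene, while others are transcribed from promoters of their own. RNA polymerase II makes the host pre-messenger RNA, and some small RNA genes in nematodes use RNA polymerase III.

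Each peak list came with a signal value that the authors assigned, on a scale that the sources used here do not state, and it was used as a rank inside each list. The optimal list held 724 peaks, and the pooled list and each replicate list held 30000 relaxed peaks that include background. A locus was counted when the summit of a peak, its highest point, lay within 200 bp. Read depth is unknown because the lists carry no read counts. Of 13 early zygotic genes, 3 (sdz-19, nhr-2 and die-1) had an optimal summit in the gene window, from 500 bp upstream to the 3′ end, and 9 had no summit in the pooled list or either replicate list. Of 9 genes of later differentiation, 0 had an optimal summit. Over all protein-coding genes the share was 2.56%, so a count of 0 in 9 genes does not test the stage. The targeted gene, ama-1, had none, and its best pooled rank was 2206.

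Of the 183 hosted snoRNA genes, 14 had an optimal summit within 200 bp (7.65%). Over all 26917 noncoding RNA and pseudogene loci of the annotation the share was 0.684%. These loci are mostly far shorter than snoRNA genes, with a median of 21 bp against 128 bp, so their windows are smaller. The 14 genes shared 13 summits in 13 hosts, since C51F7.3 and C51F7.4 lie side by side in frm-7. On the replicates' own top 724 peaks, 11 hosted genes had a summit in replicate 1 (background 0.643%) and 13 in replicate 2 (background 0.676%), a share of 6.56% ± 0.773 (SD, n = 2).

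The sequences of 8 hosted genes with optimal ranks from 71 to 387 are shown because they differ in kind. F39B2.14, of rank 97, falls in that range and is not shown. They were read from the RefSeq WBcel235 genome on the strand of the gene, 5′ to 3′. Capitals mark TGATG or TGANGA in the first 25 bases and CTGA in the last 15 bases, the letters searched for C and D boxes. In C51F7.4 they mark GGTTCGA followed by any 2 bases and CC, letters of the B box, the internal promoter element of tRNA genes, and in C10C6.8 they mark the ACA tail.
M106.6 (chrII:10840317-10840391, + strand): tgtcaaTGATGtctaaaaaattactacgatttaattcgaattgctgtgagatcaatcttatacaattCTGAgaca
K11C4.6 (chrV:6889076-6889145, + strand): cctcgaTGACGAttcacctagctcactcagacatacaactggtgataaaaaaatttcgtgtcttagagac
C51F7.3 (chrV:12303708-12303783, + strand): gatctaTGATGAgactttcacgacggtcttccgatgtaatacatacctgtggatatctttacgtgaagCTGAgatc
C51F7.4 (chrV:12303599-12303693, + strand): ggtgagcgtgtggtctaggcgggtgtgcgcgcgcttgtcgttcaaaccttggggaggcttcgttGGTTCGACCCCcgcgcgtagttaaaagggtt
F01D5.12 (chrII:14018354-14018441, - strand): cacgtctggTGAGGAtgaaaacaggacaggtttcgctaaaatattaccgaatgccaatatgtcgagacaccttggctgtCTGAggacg
C16D9.11 (chrV:8228900-8228969, - strand): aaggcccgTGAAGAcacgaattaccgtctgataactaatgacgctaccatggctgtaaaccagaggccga
C08D8.3 (chrV:8349108-8349187, + strand): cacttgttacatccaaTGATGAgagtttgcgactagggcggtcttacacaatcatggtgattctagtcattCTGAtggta
C10C6.8 (chrIV:11474059-11474191, - strand): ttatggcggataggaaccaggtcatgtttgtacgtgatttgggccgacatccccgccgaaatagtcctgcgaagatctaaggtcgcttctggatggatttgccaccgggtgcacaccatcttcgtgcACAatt

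The highest-ranked hosted gene was M106.6, in intron 13 of mix-1, a condensin subunit gene of 17179 bp. Its peak ranked 71 in the optimal list with a signal of 108.5, 115 in replicate 1 with 51.4 and 74 in replicate 2 with 62.1. The summit lay 129 bp upstream of the snoRNA gene, in the preceding exon of mix-1, and 1236 bp before the 3′ end of the host. No other optimal summit lay in mix-1.

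K11C4.6 lies in intron 8 of unc-70, the beta-spectrin gene. Its peak ranked 82 in the optimal list, 131 in replicate 1 and 120 in replicate 2, with the summit 122 bp upstream in the same intron. The noncoding RNA gene K11C4.7 lay within 200 bp of that summit as well. This host carried a further optimal summit away from the snoRNA gene.

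The pair C51F7.4 and C51F7.3 in frm-7, a gene for a FERM domain protein, shared 1 summit that ranked 83 in the optimal list, 154 in replicate 1 and 72 in replicate 2. The summit lay 54 bp upstream of C51F7.4 and 163 bp upstream of C51F7.3, in an exon of frm-7, so it cannot be assigned to either snoRNA gene. C51F7.3 carries both box letters. C51F7.4 lacks them but holds the B box letters shown above. On the gene's own strand these letters occurred in 64.4% of 612 annotated tRNA genes, in 1 of 183 hosted snoRNA genes, in 1 of 163 snoRNA genes outside hosts and in 2 of 693 windows in other host introns, and on the opposite strand in 0.654% of tRNA genes and 0 snoRNA genes.

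F39B2.14, on chromosome I (14759178 to 14759412), overlaps an exon of tmem-107, a gene for a ciliary membrane protein that is 698 bp long. Its peak ranked 97 in the optimal list, 133 in replicate 1 and 149 in replicate 2. The summit lay 85 bp upstream of the snoRNA gene, 24 bp outside the 5′ end of tmem-107 and 433 bp from the 5′ end of rps-26, a ribosomal protein gene. A peak of the snoRNA gene, of the host promoter and of rps-26 cannot be told apart there.

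F01D5.12, in intron 6, the longest of F01D5.10, ranked 151 in the optimal list, 276 in replicate 1 and 191 in replicate 2. The summit lay 97 bp downstream, in an exon, and the noncoding RNA gene F01D5.14 lay within 200 bp of it. C16D9.11 lies in intron 27, the longest of rol-3, a receptor tyrosine kinase gene. It ranked 192 in the optimal list, 146 in replicate 1 and 286 in replicate 2, with the summit 133 bp downstream in the last exon, 491 bp from the host 3′ end.

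C10C6.8 in catp-8, a P-type ATPase gene, ranked 245 in the optimal list, 291 in replicate 1 and 643 in replicate 2. The noncoding RNA gene C10C6.11 lay within 200 bp of its optimal summit. C08D8.3 in C08D8.1 ranked 387, 684 and 528 in those 3 lists. These 9 genes, from M106.6 to C08D8.3, had a summit in the top 724 of both replicates, and the remaining 5 did not.

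**Figure D1:**
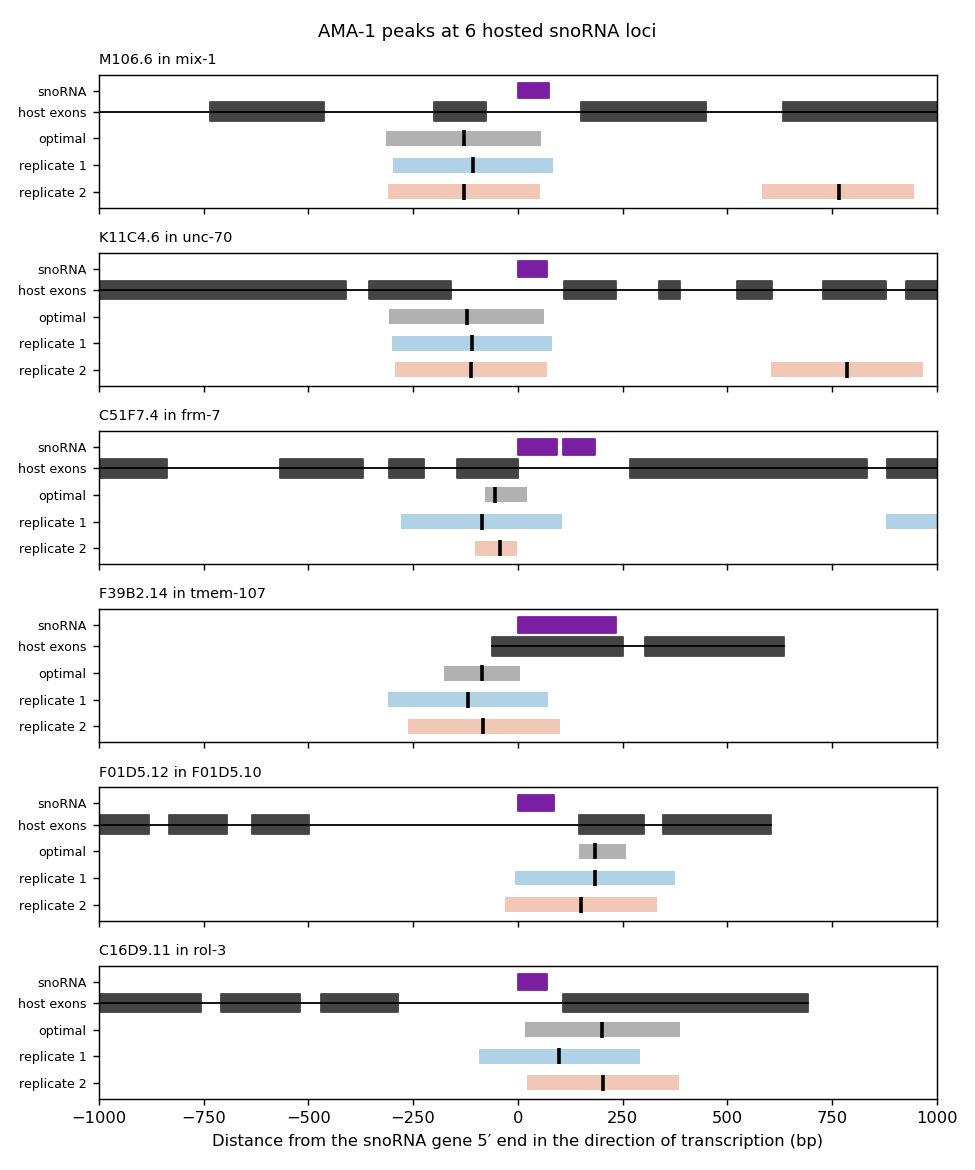
Gene models and peaks at the 6 best-ranked hosted snoRNA loci (the C51F7.4 panel also shows C51F7.3). The horizontal axis is distance in bp from the snoRNA gene 5′ end in the direction of transcription; purple boxes are snoRNA genes, dark boxes host exons, and pale bars peaks of the optimal list and of the upper 5000 of each replicate, with ticks at summits. The replicate peaks beside the snoRNA gene overlap at each locus, with the widths differing most at C51F7.4, and their summits stand next to the snoRNA gene and not on it.

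Among the lower-ranked genes the replicates parted. The gene annotated as smy-2, a snoRNA gene of 72 bp in C33A12.3, ranked 436 in the optimal list, 829 in replicate 1 and 723 in replicate 2. It was the only hosted gene whose optimal summit lay inside it. C04A2.16, in an intron of 2754 bp in egl-27, a gene for a chromatin factor of the MTA family, ranked 508 in the optimal list, 360 in replicate 1 and 2888 in replicate 2.

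ZK546.18 in mdt-4, a Mediator subunit gene, ranked 573 in the optimal list, 3697 in replicate 1 and 345 in replicate 2. F25H2.14, on chromosome I in tct-1, a gene for the translationally controlled tumour protein, ranked 596, 4382 and 217 in those lists. Its optimal summit lay 198 bp downstream, just inside the window, in exons of both tct-1 and F25H2.12. The replicate 2 summit lay 197 bp downstream, but the replicate 1 summit of rank 4382 lay elsewhere, inside the snoRNA gene. Y43F8C.22 in Y43F8C.7 ranked 621 in the optimal list, 816 in replicate 1 and 1307 in replicate 2. Thus smy-2, C04A2.16, ZK546.18 and F25H2.14 had a summit in the top 724 of 1 replicate only, and Y43F8C.22 in neither.

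**Figure D2:**
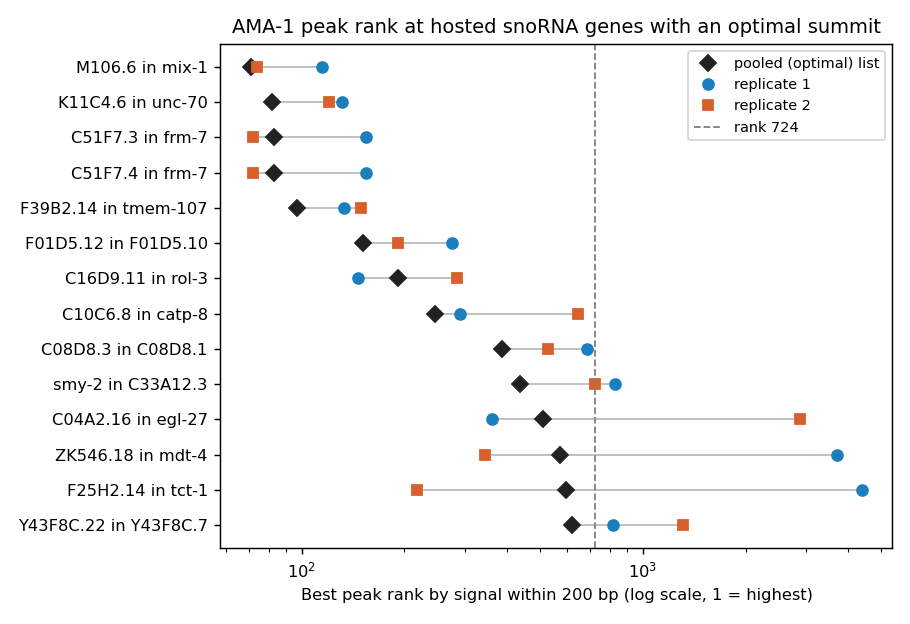
Best peak rank within 200 bp for the 14 hosted snoRNA genes with an optimal summit, on a log axis where 1 is the highest peak. Diamonds are the pooled list, whose upper 724 peaks are the optimal list, circles replicate 1 and squares replicate 2; the dashed line marks rank 724. C04A2.16, ZK546.18 and F25H2.14 stand far to the right of the line in 1 replicate each, at ranks 2888, 3697 and 4382. For F25H2.14 the replicate 1 rank is of another summit, inside the snoRNA gene.

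Just outside the window stood F58D5.12 in F58D5.5, whose nearest optimal summit, of rank 137, lay 203 bp away. Replicate 1 placed its summit within 200 bp at rank 113. Replicate 2's own top peaks added W04D2.7 in the innexin gene inx-11, at rank 651 there, against 3917 in replicate 1 and 907 in the pooled list. Of the 169 hosted genes without an optimal summit, 4 had one within 500 bp and 13 within 1000 bp.

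The 5 hosted genes without an optimal summit that ranked best in the pooled list were JC8.15 in tag-115 (pooled rank 824, replicate 1 rank 1062, no summit in replicate 2), Y37E3.20 in pcyt-2.1 (828, with 1096 and 956 in replicates 1 and 2), W04D2.7, C05D2.15 in madf-11 (pooled rank 1072, with 1086 and 11402) and D1046.6 in cfim-2 (1672, with 1185 and 5214). The product of pcyt-2.1 is an enzyme of phospholipid synthesis and that of cfim-2 a subunit of the 3′ end cleavage factor. In C05D2.15 and D1046.6 replicate 1 ranked the site far above replicate 2.

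The summits stood beside the snoRNA genes more often than on them, but most of each counted stretch is the 200 bp on either side. Of the 14 genes, 8 had the summit upstream, 1 inside and 5 downstream in the direction of transcription, with a median gap of 115 bp. Of the 13 distinct summits, 5 lay in an exon of the host, 7 in an intron and 1 outside the host. In 3 cases the peak itself did not overlap the snoRNA gene. For 12 of the 14 genes the summit was nearer the snoRNA gene than any end of a protein-coding gene, the exceptions being F39B2.14 and F25H2.14. The 14 were picked for a summit within 200 bp, so this count was largely set by that choice. It does not assign the summits to the snoRNA genes.

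Hosted genes with a summit were short and lay nearer the host 3′ end than the others, features looked at after their values were seen. Their median length was 91.5 bp, against 129 bp for the hosted genes without one. The median distance to the host 3′ end was 709 bp against 1461 bp, and that to the 5′ end 2212 bp against 2066 bp. Of 48 hosted genes under 100 bp, 8 had an optimal summit (16.7%), as did 6 of 135 longer ones (4.44%). The 8 include both frm-7 genes, which share 1 summit. The shorter class had 8 and 9 genes with a summit in the own top peaks of replicates 1 and 2, and the longer class 3 and 4. By chromosome the counts were 6 of 36 on V, 4 of 35 on II, 2 of 36 on I and 2 of 28 on IV. The 6 on V also include both frm-7 genes. Chromosome III had 0 of 38, which allows a share of up to 7.89%, and X had 0 of 10. No background share was taken per chromosome, so no chromosome pattern is read from these counts.

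By sequence, 18 hosted genes held both C and D box letters, 59 held an ACA tail (ACA in the last 8 bases) without that pair and 106 held neither the pair nor the tail. An optimal summit was present at 4 of the 18 (22.2%), at 4 of the 59 (6.78%) and at 6 of the 106 (5.66%). The 6 include K11C4.6 and C16D9.11, which hold the C box letters only, and smy-2, which holds CTGA only. The search for the pair thus does not part box C/D genes from all others. Those with both box letters, M106.6, C51F7.3, F01D5.12 and C08D8.3, had a summit in the top 724 of both replicates. With a median of 84 bp against 133 bp for the ACA class, box class and length cannot be told apart here. Both letters were present in 9.84% of hosted genes, 12.9% of snoRNA genes outside hosts and 0 of 693 windows of 128 bp at the midpoints of other host introns. On the opposite strand they were present in 0 hosted genes and in 1 of these windows (0.144%). ACA in the last 8 bases was present in 33.3% of hosted genes and in 10.2% of the windows, and on the opposite strand in 10.4% and 8.95%.

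Compared with other introns of the same hosts, the introns with a snoRNA gene carried more AMA-1 summits. To use windows of like size, a stretch of 128 bp, the median snoRNA gene length, was placed at each intron midpoint and a summit within 200 bp was counted. Of 143 introns with a snoRNA gene, 9 had an optimal summit (6.29%), with 4.9% in replicate 1 and 5.59% in replicate 2 on their own peaks (5.24% ± 0.494, SD, n = 2). Of 1225 other introns in these hosts, 13 had one (1.06%; 0.857% ± 0.173 over the replicates, SD, n = 2). The share over 104649 snoRNA-free introns of all protein-coding genes was 0.357%. The values of both replicates lay above those of the other introns, a gap larger than the spread between replicates, and no test was run.

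Introns with a snoRNA gene were longer, with a median of 390 bp against 128 bp. Among other host introns within 20% of the length of each of them, the mean share was 0.694%, averaged over the 142 introns that had such a match. Restricted to introns of 82 bp or more, the length of the shortest intron with a snoRNA gene, 5 of 693 other introns had a summit (0.722%). Summits near a snoRNA gene reached neighbouring introns too: only 7 of the 13 introns counted above held a summit away from every snoRNA gene.

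Counted inside the introns and not in windows, 13 optimal summits lay in the 319 kb of introns with a snoRNA gene (4.08 per 100 kb). In the 710.1 kb of other introns there were 4 (0.563 per 100 kb). Of the 13, 7 were within 200 bp of a snoRNA gene. The other 6 were spread over the same long introns, at 1.88 per 100 kb. The rate of summits away from snoRNA genes in these introns was thus also above the 0.563 per 100 kb of the other introns.

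The difference from other introns held far down the ranked lists. Taking the upper 5000 pooled peaks, 43 hosted genes had a summit (23.5%). Of the 693 other introns of 82 bp or more, 27 did (3.9%), and of all 1225 other introns 74 (6.04%). No share over all noncoding RNA loci was taken at these depths. Over all 30000 pooled peaks, which cover 11% of the genome and include background, 109 hosted genes had one (59.6%). For the other introns of 82 bp or more it was 224 (32.3%), and for all 1225 it was 415 (33.9%). In the full lists of replicates 1 and 2, 56.3% and 53% of hosted genes had a summit, and 31.6% of the introns of 82 bp or more did in either.

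snoRNA genes outside same-strand hosts ran differently over list depth. Of these 163 genes, 16 had an optimal summit (9.82%), and 8 and 18 had one in the own top peaks of replicates 1 and 2 (7.98% ± 4.34, SD, n = 2). This spread covers the value for hosted genes, so no difference is read from the main count. The SD of 2 replicates does not measure counting error. With a summit within 100 bp, 14 outside genes (8.59%) and 6 hosted genes (3.28%) were counted. In the higher-ranked part of the optimal list, 12 outside genes (7.36%) and 8 hosted genes (4.37%) were. These differences were not tested. Over all 30000 pooled peaks, 45 of the 163 had a summit (27.6%), against 59.6% of hosted genes. The outside genes with a summit ranked high, with a median pooled rank of 2700 against 6642 for hosted genes with a summit.

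**Figure D3:**
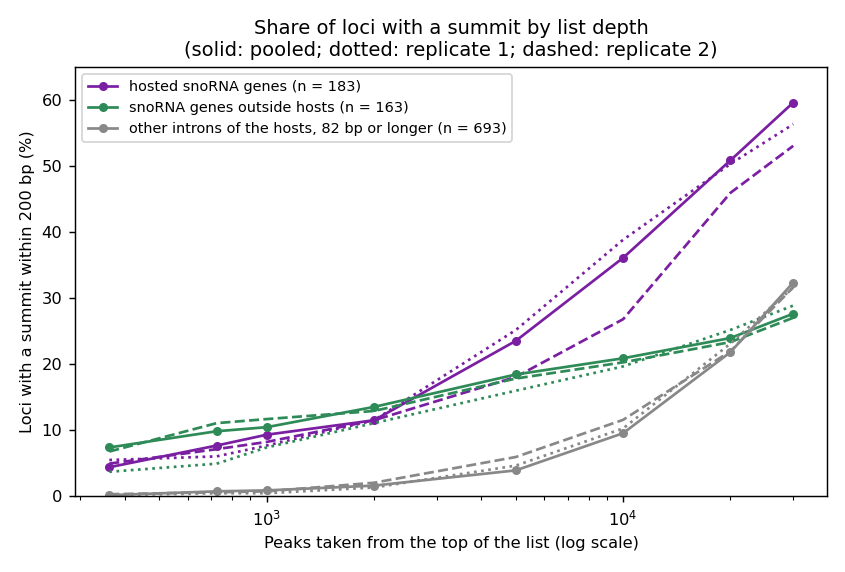
Share of loci with a summit within 200 bp as more peaks are taken from the top of each list (log axis), for 183 hosted snoRNA genes, 163 snoRNA genes outside hosts and 693 windows in other host introns of 82 bp or more. Solid lines are the pooled list, dotted lines replicate 1 and dashed lines replicate 2. Hosted genes start near the outside genes, at 7.65% and 9.82% in the upper 724 peaks, and end at 59.6% against 27.6%.

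Over the 67 hosted genes with a summit in both full replicate lists, Spearman's rho of the ranks was 0.504. This is a description across genes that share the same 2 libraries, and neighbouring genes can share a summit.

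The summits of the upper 2000 pooled peaks were also counted by distance. The 200 bp just upstream of the snoRNA gene midpoint held 12 summits, or 6.56 per 100 genes, and the 200 bp just downstream held 6. Each summit was counted once per gene, so the frm-7 summit entered the upstream bin for both of its snoRNA genes. In their own top 724 peaks replicate 1 had 4 upstream and 5 downstream and replicate 2 had 8 and 4, so the larger upstream count was not seen in replicate 1. At the midpoints of other introns of 82 bp or more the same bins held 4 and 2 summits, or 0.577 and 0.289 per 100 introns. A further high bin lay 800 to 1000 bp downstream of the snoRNA gene, with 10 summits or 5.46 per 100 genes. The other introns had 10 summits in that bin, or 1.44 per 100. The bin was not high in the other lists, with 2 summits at hosted genes in the optimal list and 2 and 3 in the own top peaks of replicates 1 and 2. The bin before it, from 600 bp, held 5 in the optimal list and 3 and 5 in replicates 1 and 2. In the optimal list that was 2.73 per 100 genes, against 0.866 per 100 other introns. In the upper 2000 pooled peaks, bins from 400 bp downstream held 4 to 10 summits each, and bins upstream beyond 200 bp held 0 to 5.

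**Figure D4:**
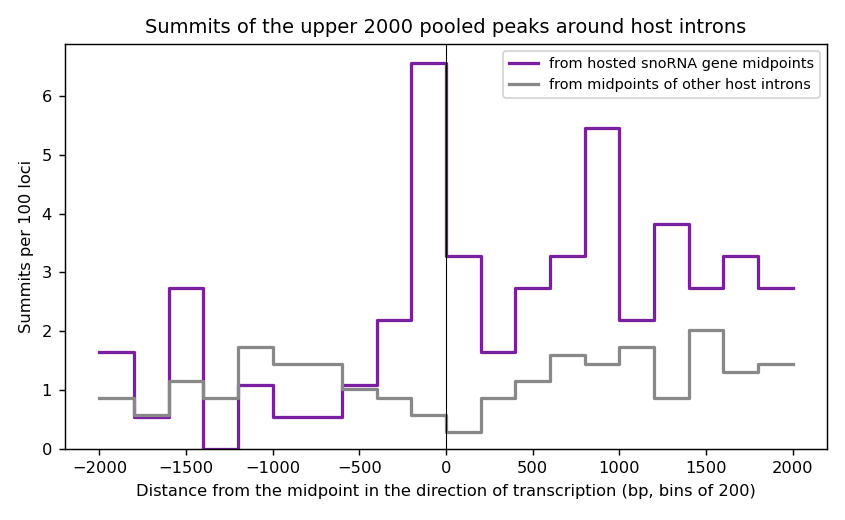
Summits of the upper 2000 pooled peaks per 100 loci, in bins of 200 bp from the midpoint in the direction of transcription. The purple line is for hosted snoRNA genes and the grey line for midpoints of other introns of the same hosts. The purple line reaches 6.56 just upstream of the midpoint and 5.46 at 800 to 1000 bp downstream, while the grey line is at 0.577 and 0.289 in the bins beside its own midpoint.

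The hosts themselves often had polymerase summits. Between 500 bp upstream of the 5′ end and the 3′ end, 29 of 156 hosts had an optimal summit (18.6%; 17.3% ± 0.907 over the replicates' own peaks, SD, n = 2). The background over 19973 protein-coding genes was 2.56%. Hosts are long, with a median of 5567 bp against 2027 bp, and non-host genes within 20% of each host's length had a mean share of 4.02%. In 11 hosts the only summits were those within 200 bp of a snoRNA gene, while 18 hosts (11.5%) had a summit away from them. Within 250 bp, 5 hosts had a summit at the 5′ end (3.21%, against 0.856% of all protein-coding genes) and 3 at the 3′ end (1.92%, against 0.916%).

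In 16 hosts the snoRNA gene had no optimal summit although the host did. The histone variant gene his-72, which makes an H3.3 protein, had its best peak at pooled rank 18, with 24 and 22 in replicates 1 and 2, while the nearest optimal summit to its snoRNA gene Y49E10.36 lay 352 bp away. In ppfr-1, a phosphatase regulatory gene, the best peak ranked 56 in the pooled list. The cadherin gene hmr-1, 58913 bp long, had 6 optimal summits, none within 200 bp of W02B9.3. The kinase gene mnk-1 had 5, the nearest of them 486 bp from R166.7. The Hsp70 gene hsp-1 had 1, 560 bp from F26D10.24.

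By host class, set from gene symbols, no snoRNA gene in a host of the translation and RNA processing classes had an optimal summit. Hosts of like function under other symbols, such as cfim-2, count among the other hosts. The 13 ribosomal protein hosts held 19 snoRNA genes and 0 had one, which allows a share of up to 15.8%. None of these 13 hosts had a summit in its gene window, which allows up to 23.1%, against 7 of 68 ribosomal protein genes that host none (10.3%). A difference of that size was not detectable with 13 hosts. In the full pooled list 13 of the 19 had a summit (68.4%). The best were F54E7.10 and F54E7.11 in rps-12, which shared the summit of rank 3396, and Y43B11AR.7 in rps-4 at rank 3790. The 19 lay close to host ends, 17 of them within 500 bp.

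Translation factor hosts held 5 snoRNA genes, splicing and RNA-binding hosts 6 and chaperone hosts 2, with 0 optimal summits near them. By symbol, ribosome biogenesis held a single host, nol-56, the gene of a core protein of box C/D particles, with 4 snoRNA genes. In all, 0 of 36 hosted genes in these 5 classes had an optimal summit, which allows up to 8.33%, against 14 of 147 in all other hosts (9.52%). The limit counts each gene as separate, although some share a host, such as the 4 in nol-56, so it is too low. No difference between host functions is read from it. In the full pooled list the shares were alike, 22 of 36 (61.1%) and 87 of 147 (59.2%).

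**Figure D5:**
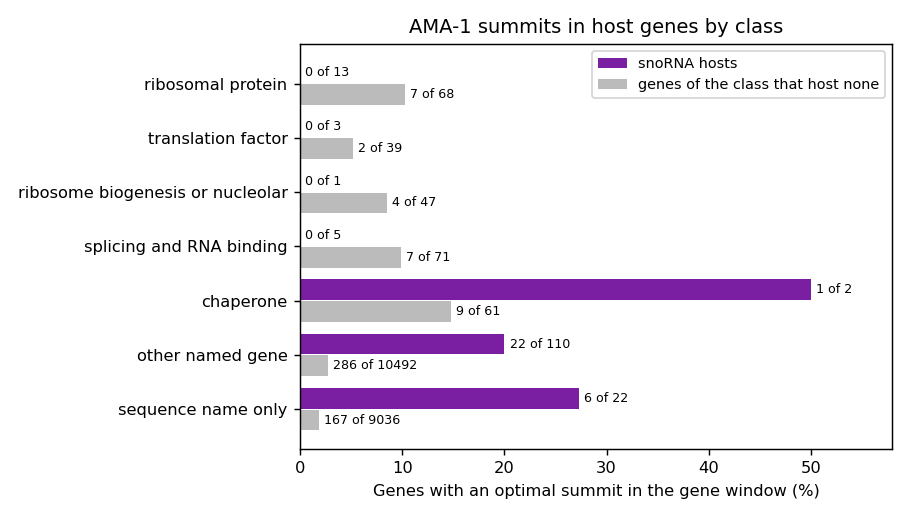
Percentage of genes with an optimal summit in the gene window, by class of gene set from symbols. Purple bars are snoRNA hosts and grey bars genes of the same class that host none, with counts at the bars. The ribosomal protein, translation factor, ribosome biogenesis and splicing classes have 0 hosts with a summit out of 13, 3, 1 and 5, against 10.3%, 5.13%, 8.51% and 9.86% of the genes that host none; the chaperone class has 1 of 2 hosts (14.8% of the others), other named hosts have 22 of 110 (2.73%) and hosts with only a sequence name 6 of 22 (1.85%).

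Only 3 hosts held 3 or more snoRNA genes, and none of their 10 genes had an optimal summit. In nol-56 the pooled ranks were 3898 for K07C5.10, 4048 for K07C5.11 and 21055 for K07C5.12, and K07C5.18 had no summit in the pooled list. The 3 snoRNA genes of top-2, a DNA topoisomerase gene, shared a summit of pooled rank 6605. They ranked 4644 in replicate 1, and in replicate 2 K12D12.6 and K12D12.7 ranked 11632 and K12D12.8 ranked 10180. In rpl-6, R151.12 ranked 13817 and R151.11 26218, and R151.13 had no pooled summit.

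The 4 snoRNA genes of nol-56 form 2 pairs of like sequence. K07C5.11 and K07C5.12 were 82.3% identical and K07C5.10 and K07C5.18 71.2%, while members of different pairs were 50.3% to 53.2% identical. The closer pair is shown with the ACA tail in capitals.
K07C5.11 (chrV:10352710-10352836, - strand): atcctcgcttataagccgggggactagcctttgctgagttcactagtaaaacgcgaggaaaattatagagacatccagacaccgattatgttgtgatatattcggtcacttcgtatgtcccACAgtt
K07C5.12 (chrV:10351733-10351862, - strand): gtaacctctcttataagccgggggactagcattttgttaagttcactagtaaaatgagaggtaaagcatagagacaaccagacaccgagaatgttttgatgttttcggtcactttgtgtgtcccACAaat

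Repeated sequence touched few hosted genes. In 150 of the 183, every 31-mer of the gene and its 200 bp flanks occurred once in the genome. In 4, fewer than 50% did, and these 4 were all among the genes without an optimal summit. The 14 genes with a summit had 100% unique 31-mers.

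Among genes for the snoRNA machinery, 1 of 12 found in the annotation had an optimal summit in its gene window. It was xrn-2, a nuclear 5′ to 3′ exonuclease gene of 10263 bp, at pooled rank 367. The fibrillarin gene fib-1 ranked 4157, the dyskerin gene dkc-1 9981, nol-58 6655 and snu-13 2211 in the pooled list. The share of 1 in 12 stands beside the background of 2.56% for all protein-coding genes.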

How the data were processed

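AMA-1 ChIP-seq peak lists of 2 biological replicates were used, on the ce11 build. Per the deposited text notes, each replicate list and the pooled list are relaxed peaks with background meant for the irreproducible discovery rate (IDR) step, and the optimal list is its thresholded output. By the same notes the replicate lists and the pooled list share a further input file besides the replicates' alignments; the labels name a possible control, which was not analysed here. The signal per peak was assigned by the authors and used for ranks only. The deposited −log10 q-value took 1 value in the optimal list and was not used. The summit offset is also the authors'. No source used here names the aligner or peak caller, and depth is unknown. All 724 optimal peaks were the upper 724 of the pooled list, and no peak ran past a chromosome end.

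Hosts, introns (stretches in no exon of any transcript of the gene), windows and 31-mers were computed with Python 3.11.15, pandas 2.3.3 and scipy 1.17.1. The counting was tested on simulated summits. Where a snoRNA gene had more than 1 host (3 genes), the shortest was used. Host classes follow gene symbols. Named genes are the hosted genes with an optimal summit, the 5 next by rank, those at the window's edge, hosts with 3 or more, the machinery list and ama-1; other hosts were named after their values were seen. The machinery list held 13 names, of which nol-1 was not matched. Members and lists were chosen with earlier results of these data known. No chance test was run, and shares are set beside the background. The limit for a count of 0 is 3 counts, covers counting error only and treats genes in the same host as separate. The ce10 lists were not used here.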

Additional observations from a re-analysis of the deposited data

How the results depend on the processing

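No paired analysis was possible because the design has a single group. The count of 14 hosted snoRNA genes became 8 in the higher-ranked part of the optimal list, with 50% of its peaks, and 6 with a summit within 100 bp. It stayed within 1.5 times in the other planned settings, including 12 of the 143 that overlap no host exon and 11 of the 129 at least 500 bp from host ends. The highest count was 21, in the upper 2000 pooled peaks. Leaving out 1 replicate gave 11 to 13. After seeing the data, 12 with the summit nearer the snoRNA gene than a gene end were also counted, a number largely set by the 200 bp window.

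The 13 other introns of the hosts became 6 in that part of the list, 25 in the upper 2000 pooled peaks, 5 within 100 bp, 29 within 500 bp, 8 by peak overlap and 5 among introns of 82 bp or more, with 9 to 12 when 1 replicate was left out. The 16 snoRNA genes outside hosts became 8 without replicate 2 and 18 without replicate 1. They became 14 within 100 bp, 12 in the higher-ranked part of the optimal list and 22 in the upper 2000 pooled peaks. Only the 8 was not within 1.5 times. Hosts with a summit went from 29 to 48 in the upper 2000 pooled peaks and to 5 within 250 bp of the 5′ end, with 26 to 28 when 1 replicate was left out. Ribosomal protein hosts gave 0 in each setting. Causes of these shifts were not tested. The number of loci limits the precision of each share, and 2 replicates limit the SD.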
